A study of Mus musculus with 16 samples.

Results

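The genes described here encode factors of the pluripotency network of mouse embryonic stem (ES) cells: Pou5f1, Nanog, Klf4, Tbx3, Sall4, Esrrb, Nr0b1, Zfp42 and Fbxo15. They were chosen by name, as every probe set of the array whose only gene symbol in the array's annotation is one of these 9, which gave 13 of 12488 probe sets (9 of the 8251 genes that the array names singly). Of the 13, 10 probe sets had a mean signal of at least 100 over the ES arrays and were tested, and they cover all 9 genes. The other 3, second probe sets of Pou5f1, Klf4 and Nr0b1, were dim in every group. Most of the genes encode DNA-binding factors or nuclear receptors, while Fbxo15 encodes an F-box protein and is known as a gene controlled by the network.

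The 16 arrays held 6 groups. The Cdk4 +/- group was an ES line with 1 mutated copy of Cdk4, the gene of a cyclin-dependent kinase of the G1 phase, and E14 was the +/+ ES line that the labels give as its control, without calling it the parent. Both were feeder-independent lines, and RNA was isolated with RNeasy. The Abca1 +/- group was an ES line with 1 mutated copy of Abca1, the gene of a cholesterol exporter, and ESVJ was its +/+ parental line. Both were grown on irradiated mouse embryonic fibroblast feeders, were then depleted of feeders and kept on gelatin for about 2 days, and RNA was isolated with Trizol and RNeasy. Each ES group had 3 arrays, and each mutant is labelled as 1 cell line. The liver groups, with 2 arrays each, are labelled as Abca1 +/- and +/+ mice on a mixed background of 129/SvJ and C57BL6/J. The labels do not tell whether the arrays of a group are separate cultures, so the p-values may reflect technical spread alone.

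Mouse ES cells keep the ability to form all tissues of the embryo through a small set of factors that bind their own and each other's control regions. Oct4, the product of Pou5f1, binds together with Sox2, and Nanog, Klf4, Tbx3 and Esrrb stabilise the naive state. Of these, Klf4 and Tbx3 act downstream of leukaemia inhibitory factor (LIF), the cytokine that activates STAT3 in these cells. Differentiating cells silence much of the network, and adult liver is not known to run it as a whole.

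The promoters of the genes are shown because the letters of these factors' binding motifs can be read in some of them. RefSeq windows on GRCm38.p6, from 250 bases before to 50 bases after a gene's start, were at hand for 6 of the 9 genes, with 9 windows in all. The windows below are Nanog at chr6:122707239-122707538 and Pou5f1 at chr17:35505782-35506081, both on the plus strand, and Zfp42 at chr8:43306960-43307259 and Klf4 at chr4:55532426-55532725, both on the minus strand. Each is printed along the gene's own strand, and capitals mark motif matches.
Nanog: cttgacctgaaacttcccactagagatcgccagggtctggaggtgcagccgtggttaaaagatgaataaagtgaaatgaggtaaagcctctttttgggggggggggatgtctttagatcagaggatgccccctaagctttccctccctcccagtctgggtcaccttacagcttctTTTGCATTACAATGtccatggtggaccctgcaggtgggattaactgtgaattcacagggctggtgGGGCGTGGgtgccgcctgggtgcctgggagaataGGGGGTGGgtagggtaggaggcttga
Pou5f1: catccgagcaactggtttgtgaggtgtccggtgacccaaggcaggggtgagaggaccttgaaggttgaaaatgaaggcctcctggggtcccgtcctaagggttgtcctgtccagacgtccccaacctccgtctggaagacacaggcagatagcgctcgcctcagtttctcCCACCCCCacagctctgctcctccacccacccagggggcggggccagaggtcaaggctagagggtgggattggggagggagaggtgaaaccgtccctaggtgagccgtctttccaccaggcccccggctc
Zfp42: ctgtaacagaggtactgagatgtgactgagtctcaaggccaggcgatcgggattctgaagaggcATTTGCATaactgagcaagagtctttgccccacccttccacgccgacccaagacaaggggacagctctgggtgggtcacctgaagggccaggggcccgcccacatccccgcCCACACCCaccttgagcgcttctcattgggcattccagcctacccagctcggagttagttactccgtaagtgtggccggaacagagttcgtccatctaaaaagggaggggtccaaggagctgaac
Klf4: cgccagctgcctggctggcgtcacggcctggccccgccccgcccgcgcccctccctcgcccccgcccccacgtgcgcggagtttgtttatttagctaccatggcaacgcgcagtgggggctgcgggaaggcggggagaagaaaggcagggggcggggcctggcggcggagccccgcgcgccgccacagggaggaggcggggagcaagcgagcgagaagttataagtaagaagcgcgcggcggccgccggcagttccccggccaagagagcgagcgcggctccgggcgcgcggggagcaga
The letters searched on both strands were the octamer ATTTGCAT, the composite element of Sox and Oct factors, a STAT site TTCNNNGAA, an Esrrb-type site TCAAGGTCA, a T-box site AGGTGTGA and a Klf site GGGNGTGG. The composite's letters were set with the known Nanog element in mind, so its match is not independent of that gene. It occurs in 2 of 32851 promoter windows (0.00609%), which are the 2 overlapping windows of Nanog. In the window printed its leftmost base is at position -75 from the gene's start. The octamer lies at position -186 from the start of Zfp42 and occurs in 1.74% of all windows. The Klf letters lie in Nanog, Pou5f1 and Zfp42 and occur in 17.6% of all windows, and the STAT letters lie in an Esrrb window and occur in 8.3%. The Esrrb-type and T-box letters were found in none of the 9 windows, against 0.423% and 1.28% of all windows. The Klf4 window and the Nr0b1 window hold none of the 6 motifs.

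The signals given here are MAS5 intensities after every array was brought to a 2% trimmed mean of 500. All differences are of log2(signal + 32), and the 32 added makes the change of dim probe sets look smaller. Correlations of arrays within an ES group lay between 0.970 and 0.990, against 0.925 to 0.986 between ES groups and 0.580 to 0.635 between ES cells and liver. One liver array, replicate 1 of those labelled Abca1 +/-, had a Gapdh 3′/5′ signal ratio of 4.10 and an actin ratio of 8.23, while the ES arrays had 0.801 to 1.19 and 1.04 to 1.40. The Cdk4 label was checked on Cdk4 itself, whose brighter probe set averaged 3678 ± 209 in Cdk4 +/- cells and 5716 ± 188 in E14 cells (SD, n = 3 each), a log2 difference of -0.63 (adjusted p = 0.00436). The dimmer Cdk4 probe set averaged 1049 in Cdk4 +/- and 1731 in E14 cells, and its difference did not pass (-0.70, limma, adjusted p = 0.104). Abca1 averaged 110 ± 14.8 in Abca1 +/- cells and 141 ± 38.1 in ESVJ cells (SD, n = 3 each), and this difference did not pass. In liver the same Abca1 probe set went against the labels, with 627 ± 102 in the livers labelled Abca1 +/- and 314 ± 18.5 in those labelled +/+ (SD, n = 2 each), while a second one averaged 101 in the livers labelled Abca1 +/- and 217 in those labelled +/+. The liver arrays serve here only as 1 background for the ES cells. In liver, 11 of 12 hepatocyte markers on the array lay above all ES arrays in every liver array. The matching share of all probe sets was not counted.

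The ES arrays were first set against liver, which served as background for each probe set. All 10 tested probe sets were higher in the 12 ES arrays than in the 4 liver arrays, in a comparison in which 80.3% of all 7841 probe sets passed, 50.5% as higher and 29.8% as lower, and the median probe set shifted by 0.38. With quantile normalization that median shift was 0.16. The signal filter favoured the higher direction for the members, whose tested probe sets averaged 12.2 (Zfp42) to 106 (brighter Nr0b1 probe set) in liver. They were kept mainly through their ES signals, so the count of 10 is partly set by the filter. Without the filter, the 3 dim probe sets did not pass in this comparison. Pou5f1 had 6475 to 11649 in ES cells and 5.76 to 44.6 in liver, a log2 difference of 7.32. Zfp42 had 2465 to 5325 in ES cells and 5.53 to 19.5 in liver, a difference of 6.43. The share of all probe sets whose lowest ES array lies above the highest liver array was not counted. Among the members this held for 7 of the 9 genes.

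Tbx3 and Esrrb were the exceptions. Tbx3 had 62.1 to 231 in ES cells and 15.7 to 69.0 in liver, and Esrrb had 39.1 to 346 in ES cells and 20.9 to 56.4 in liver. Their log2 differences of 1.21 and 1.07 are the smallest of the 10, and for both genes the ES and liver ranges overlap. These probe sets reached the signal filter through the ES groups in which they were brighter. The table holds no detection calls, so for both genes a low signal cannot be told from background.

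**Figure D1:**
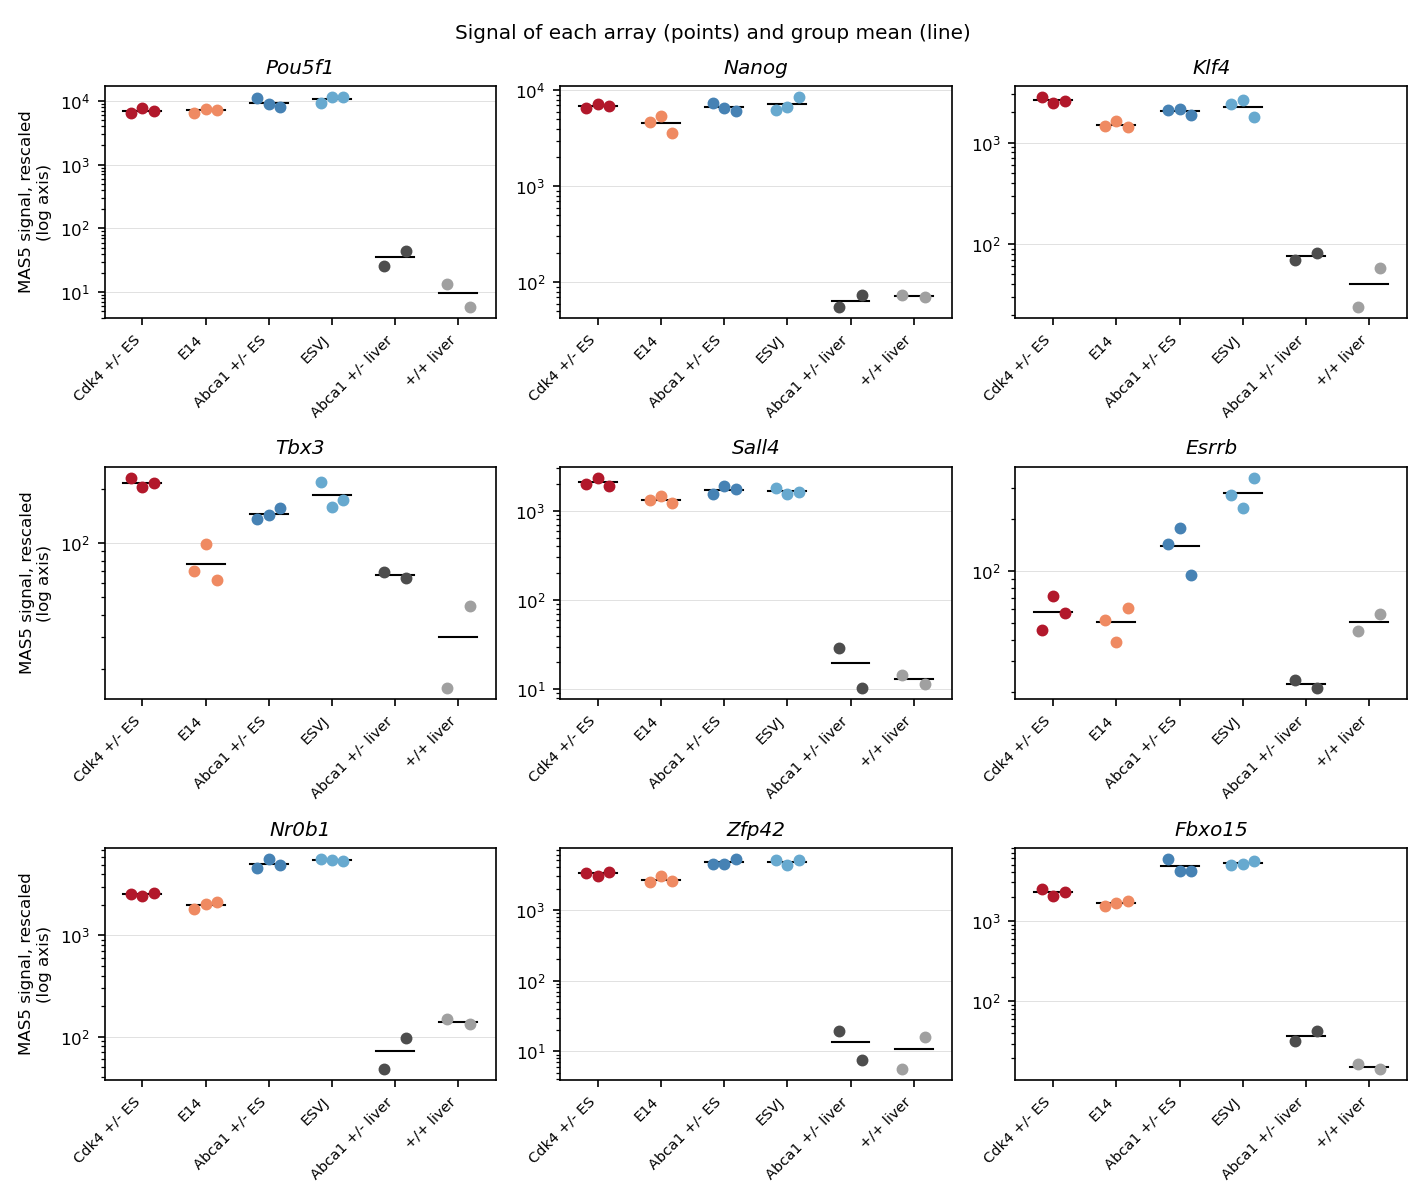
Rescaled MAS5 signal (log axis) of each array (points) with group means (lines) for the brightest probe set of each of the 9 genes, in the 4 ES groups and both liver groups. Pou5f1 lies between 6475 and 11649 in ES cells and at or below 44.6 in liver. The lowest E14 array of Tbx3, and the lowest Cdk4 +/- and E14 arrays of Esrrb, lie within the liver range.

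Cdk4 +/- cells had more Tbx3, Klf4, Nanog and Sall4 mRNA than E14 cells, and no gene of the set was lower beyond the test. The differences were between 1.53-fold and 2.30-fold. In all, 5 of the 10 probe sets, covering 4 of the 9 genes, passed as higher and 0 as lower, where 2.59% of all 7349 probe sets passed as higher, 2.33% as lower and 4.91% in either direction. Pou5f1, Esrrb, Nr0b1, Zfp42 and Fbxo15 did not pass. The median over the 10 probe sets was 0.53, and over all probe sets it was 0.02. In 8 of the 10, every Cdk4 +/- array lay above every E14 array, which holds for 13% of all probe sets. In none did every Cdk4 +/- array lie below, which holds for 11.9%. In bulk RNA, fewer cells of a type and less RNA per cell cannot be told apart.

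Tbx3, a T-box factor that sustains Nanog expression downstream of LIF, differed most. It had 231, 204 and 215 in Cdk4 +/- cells, against 70.4, 98.4 and 62.1 in E14 cells. The lowest Cdk4 +/- array is more than 2 times the highest E14 array, and the log2 difference was 1.20 ± 0.19 (SE, adjusted p = 0.00354). Klf4, a zinc finger factor induced by LIF and STAT3, had 2839, 2435 and 2568 in Cdk4 +/- cells, against 1466, 1622 and 1419.9 in E14 cells. Again no arrays overlapped, and the difference was 0.79 ± 0.14 (SE, adjusted p = 0.0075).

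Nanog, the homeodomain factor that lets ES cells renew with little LIF, is read by a pair of probe sets, both higher in Cdk4 +/- cells. The brighter one had 6623, 7241 and 6799 in Cdk4 +/- cells, against 4648, 5425 and 3554 in E14 cells, a log2 difference of 0.62 ± 0.16 (SE, adjusted p = 0.0374). The dimmer one had 972, 700.0 and 783 in Cdk4 +/- cells, against 503, 452 and 425 in E14 cells, a difference of 0.78 ± 0.17 (SE, adjusted p = 0.0224). Both pairs of groups are separate, although the suffix of the dimmer probe set marks probes shared with related sequences. Within the Cdk4 +/- group the order of the arrays differed, as the array with 7241 in the brighter probe set had 700.0 in the dimmer one. Sall4, a zinc finger factor that sustains Pou5f1 expression, had 1995, 2358 and 1885 in Cdk4 +/- cells, against 1307, 1477 and 1221 in E14 cells. These groups do not overlap either, with a difference of 0.63 ± 0.13 (SE, adjusted p = 0.0148).

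The members that missed the threshold were of unlike sizes. Nr0b1, the Dax1 corepressor, had 2569.5, 2449 and 2646 in Cdk4 +/- cells, against 1814, 2037 and 2128 in E14 cells, a log2 difference of 0.36 (95% interval 0.12 to 0.59, adjusted p = 0.0816). Fbxo15 had 2517, 2011 and 2285 in Cdk4 +/- cells, against 1552, 1655 and 1786 in E14 cells, a difference of 0.44 (0.13 to 0.74, adjusted p = 0.0977). Zfp42, the Rex1 zinc finger protein of undifferentiated cells, had 3376, 3052 and 3390 in Cdk4 +/- cells, against 2465, 2970.1 and 2545 in E14 cells, a difference of 0.30 (0.04 to 0.55, adjusted p = 0.169). In these 3 genes every Cdk4 +/- array was above every E14 array, but the differences did not pass over all probe sets. Fbxo15 passed with quantile normalization (adjusted p = 0.0462).

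For Pou5f1 and Esrrb the groups overlapped. Pou5f1 had 6475, 7821 and 6802 in Cdk4 +/- cells, against 6497, 7551 and 7205 in E14 cells, with a log2 difference of -0.01 and an interval of -0.31 to 0.29. Esrrb had 45.4, 71.6 and 56.8 in Cdk4 +/- cells, against 52.4, 39.1 and 61.4 in E14 cells, a difference of 0.12 with an interval of -0.39 to 0.62, and both groups overlap with liver.

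How firmly the 5 calls stand differs between genes. Leaving out each of the 6 arrays in turn, Tbx3 passed in 6 of 6 fits and Klf4 in 6 of 6. Sall4 passed in 4 of 6, missing without Cdk4 +/- replicate 1 (adjusted p = 0.0530) and without E14 replicate 1 (adjusted p = 0.0555). The dimmer Nanog probe set passed in 2 of 6, without Cdk4 +/- replicate 2 (adjusted p = 0.0217) and without E14 replicate 3 (adjusted p = 0.0396). The brighter one passed in 1 of 6, without E14 replicate 2 (adjusted p = 0.0341). The differences themselves kept their sign, from 0.45 to 1.34 over these fits and genes. When all 16 arrays shared 1 estimate of the spread, Tbx3 passed, Klf4 missed (adjusted p = 0.0603), and 1 of the 10 probe sets was called.

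**Figure D2:**
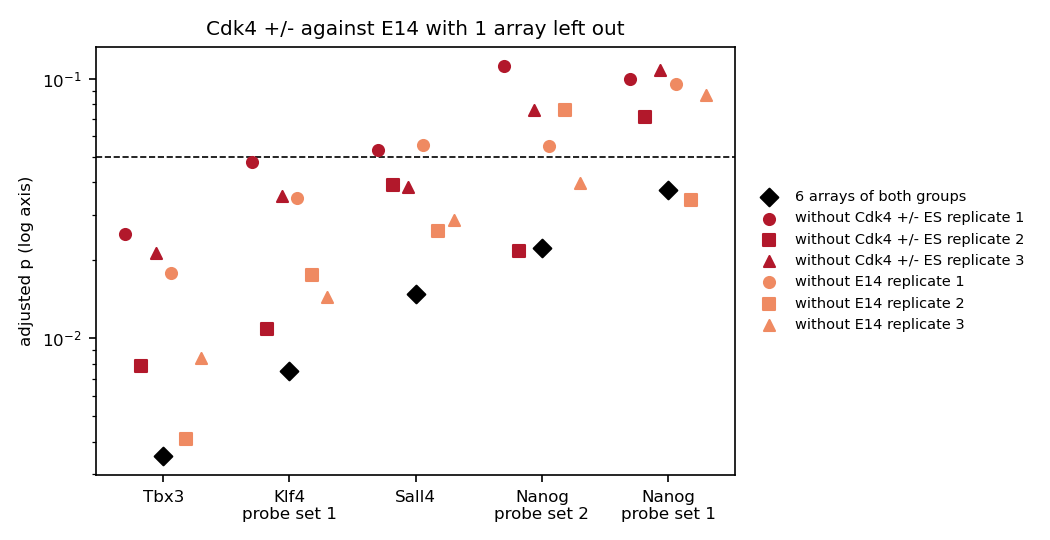
Adjusted p (log axis) of the 5 probe sets that passed in Cdk4 +/- against E14, with all 6 arrays of both groups (diamonds) and with 1 array left out (other symbols); the dashed line is 0.05. Tbx3 and Klf4 stay under the line in every fit, while the brighter Nanog probe set does so in 1 of the 6 fits with an array left out.

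No gene of the network passed between Abca1 +/- and ESVJ cells. Of the 10 probe sets 0 passed, where limma called 0.0272% of all probe sets, 0.0136% as higher and 0.0136% as lower. Over all probe sets, 241 of 7349 had an unadjusted p under 0.05. The median over the 10 was -0.14. Esrrb had 144, 177 and 94.7 in Abca1 +/- cells, against 273, 231 and 346 in ESVJ cells, a log2 difference of -0.90 (95% interval -1.40 to -0.40, adjusted p = 0.974). The ranges of Esrrb do not overlap, and its difference was the largest of the 10. Tbx3 had 136, 142 and 156 in Abca1 +/- cells, against 218, 159 and 174 in ESVJ cells, also without overlap, with a difference of -0.28 (-0.68 to 0.12). So 2 of the 10 were lower without overlap and 0 higher, against 4% and 3.93% of all probe sets.

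The remaining members overlapped between Abca1 +/- and ESVJ cells. Pou5f1 had 11056, 8839 and 8093 in Abca1 +/- cells, against 9114, 11273 and 11649 in ESVJ cells, a log2 difference of -0.20 (-0.50 to 0.10). The other differences lay between -0.15 for Fbxo15 and 0.31 for the dimmer Nanog probe set. The brighter Nanog probe set was at -0.11, so the pair did not share a sign here. For Zfp42 the interval was -0.27 to 0.24, so these arrays leave room for changes of that size.

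**Figure D3:**
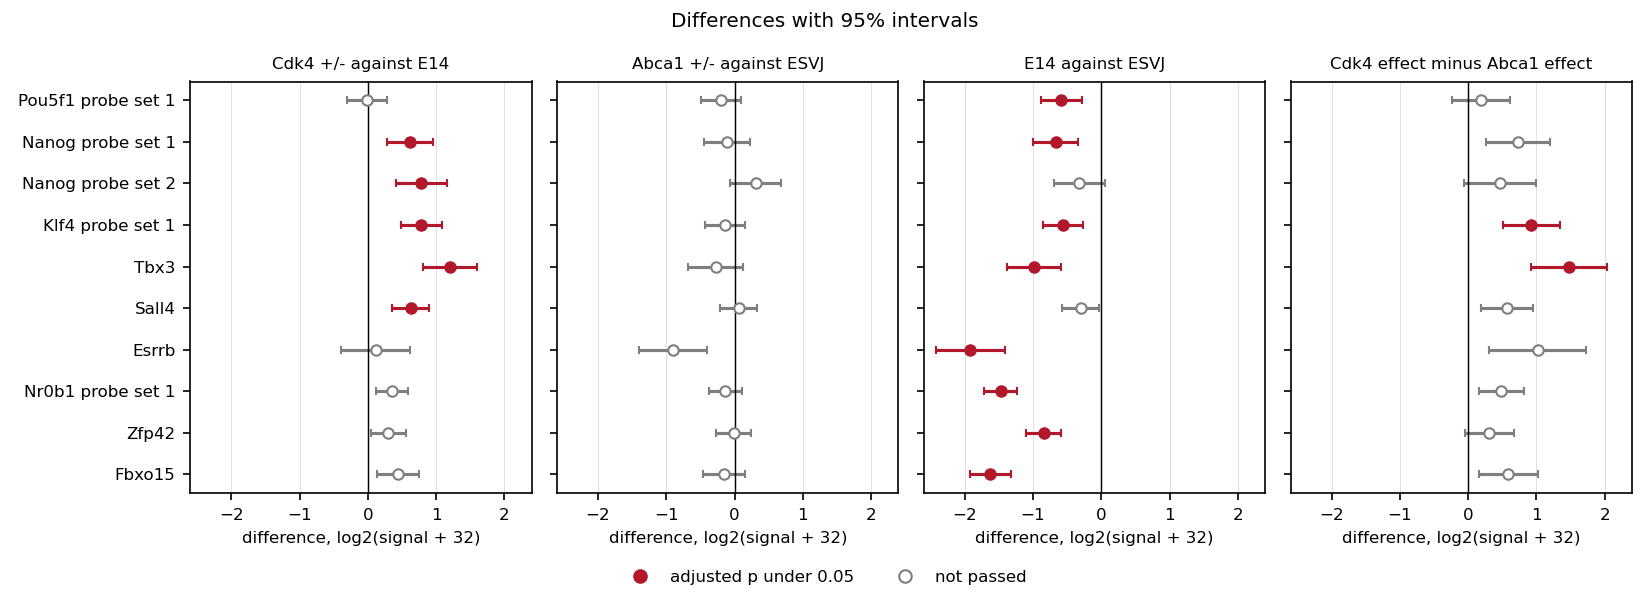
Log2 differences, on the log2(signal + 32) scale, of the 10 tested probe sets with 95% intervals, for Cdk4 +/- against E14, Abca1 +/- against ESVJ, E14 against ESVJ, and the Cdk4 effect minus the Abca1 effect; filled points have an adjusted p under 0.05. Tbx3 stands at 1.20 in the Cdk4 comparison and at -0.28 in the Abca1 one, and Esrrb, Nr0b1 and Fbxo15 lie farthest to the left for E14 against ESVJ.

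Whether the mutant lines differ from their controls by unlike amounts was tested as the difference of the 2 effects. It passed for Tbx3, at 1.48 ± 0.26 (SE, adjusted p = 0.0234), and for Klf4, at 0.92 ± 0.20 (SE, adjusted p = 0.0466), where 0.626% of all probe sets passed, 0.422% as higher and 0.204% as lower. The brighter Nanog probe set was at 0.73 (adjusted p = 0.137), Sall4 at 0.57 (adjusted p = 0.152) and Esrrb at 1.02 (adjusted p = 0.163). Leaving out 1 of the 12 arrays at a time, Tbx3 passed in 5 of 12 fits (adjusted p from 0.0215 to 0.0808). It missed without Cdk4 +/- replicates 1 or 3, E14 replicate 1, Abca1 +/- replicates 2 or 3, or ESVJ replicates 1 or 3. Klf4 passed in 2 of 12, without Cdk4 +/- replicate 2 (adjusted p = 0.0460) or without ESVJ replicate 3 (adjusted p = 0.0208). With no signal filter neither passed, at adjusted p of 0.0554 for Tbx3 and 0.0703 for Klf4.

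The 2 wild-type lines differed in most of the network. In E14 cells, 8 of the 10 probe sets, covering 8 of the 9 genes, were lower than in ESVJ cells, where 22.8% of all probe sets were lower, 19.8% higher and 42.6% passed in either direction. Of the 10, 0 were higher. In 9 of the 10 every E14 array lay below every ESVJ array, against 28.9% of all probe sets, and in 0 of the 10 above, against 23.1%. The medians were -0.76 over the 10 and -0.09 over all. Esrrb, counted here, reached the signal filter through the feeder-grown lines, with means of 58.0 in Cdk4 +/-, 51.0 in E14, 138 in Abca1 +/- and 283 in ESVJ cells. E14 and ESVJ differ in origin, feeder culture and RNA isolation, so these cannot be told apart. E14 is also the control of the Cdk4 comparison, and ESVJ that of the Abca1 comparison.

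Fbxo15 and Nr0b1 had the largest gaps between these lines among the genes whose ES arrays all lay above liver. Fbxo15 had 1552, 1655 and 1786 in E14 cells, against 4893, 5101 and 5585 in ESVJ cells, a difference of -1.62 ± 0.14 (SE, adjusted p = 4.51e-07). Nr0b1 had 1814, 2037 and 2128 in E14 cells, against 5727, 5585 and 5432 in ESVJ cells, a difference of -1.47 ± 0.11 (SE, adjusted p = 9.91e-08). In both genes the E14 arrays lie far below the ESVJ arrays, without overlap. Esrrb, an orphan nuclear receptor that binds with Nanog, had 39.1 to 61.4 in E14 cells and 231 to 346 in ESVJ cells, a fitted log2 difference of -1.92 ± 0.24 (SE, adjusted p = 1.33e-05). Its E14 arrays overlap with liver and cannot be told from background, so the size of that difference is uncertain.

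The other 5 genes that were lower in E14 cells had smaller differences. These were -0.99 for Tbx3 (adjusted p = 0.000654), -0.84 for Zfp42 (adjusted p = 5.60e-05), -0.67 for the brighter Nanog probe set (adjusted p = 0.00317), -0.58 for Pou5f1 (adjusted p = 0.00392) and -0.56 for Klf4 (adjusted p = 0.00465). The E14 range of Tbx3 overlaps with liver, so the size of its difference is uncertain. Sall4 had 1307, 1477 and 1221 in E14 cells, against 1787, 1537 and 1638 in ESVJ cells, without overlap, and missed the threshold at -0.30 (adjusted p = 0.0662). The dimmer Nanog probe set had 503, 452 and 425 in E14 cells, against 772, 557 and 455 in ESVJ cells, with overlap, and missed at -0.32 (adjusted p = 0.154). It passed without ESVJ replicate 3 (-0.49, adjusted p = 0.0438), and Sall4 without E14 replicate 2 (-0.38, adjusted p = 0.0493). So the pair of Nanog probe sets gives the same sign here, but only the brighter one gives a call.

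Over the 4 ES groups all 10 probe sets differed by the moderated F-test, as did 49.7% of all probe sets, and the order of the groups took 2 main forms. For Pou5f1, Esrrb, Nr0b1, Zfp42 and Fbxo15 the feeder-grown ESVJ and Abca1 +/- lines were the upper groups and the feeder-independent Cdk4 +/- and E14 lines the lower ones, and the step between these pairs passed. For Esrrb the step from ESVJ down to Abca1 +/- was as large, 0.90 against 0.90 between the nearest groups of the pairs. It missed (adjusted p = 0.974 against 0.00671) in a comparison with far fewer calls over all probe sets. The other Esrrb differences between the pairs were larger, from -1.92 for E14 against ESVJ to -1.02 for E14 against Abca1 +/-. Both lower groups overlap with liver, so the size of these differences is uncertain. For Nr0b1 the mean signals were 2555 in Cdk4 +/- cells, 1993 in E14 cells, 5105 in Abca1 +/- cells and 5581 in ESVJ cells. Its step from Abca1 +/- down to Cdk4 +/- was 0.98 on the log2 scale (adjusted p = 5.90e-06). For Pou5f1 the step between Abca1 +/- and E14 was 0.39 (adjusted p = 0.0402).

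Tbx3, Klf4 and the brighter Nanog probe set took the other form, with E14 alone at the bottom. The step from Abca1 +/- down to E14 passed for Tbx3 at 0.71 (adjusted p = 0.00736), for Nanog at 0.56 (adjusted p = 0.0106) and for Klf4 at 0.42 (adjusted p = 0.0251), and no step above it did. Tbx3 averaged 216 ± 13.6 in Cdk4 +/- cells, 77.0 ± 19.0 in E14 cells, 145 ± 10.2 in Abca1 +/- cells and 184 ± 30.5 in ESVJ cells (SD, n = 3 each). Its Cdk4 +/- level was 0.21 above that of ESVJ on the log2 scale, with an interval of -0.18 to 0.61. Sall4 and the dimmer Nanog probe set also had E14 at the bottom, but none of their neighbouring steps passed.

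Set directly against ESVJ, Cdk4 +/- cells were lower in 5 genes, where 21.7% of all probe sets were lower, 19.9% higher and 41.6% passed in either direction. These were Esrrb (-1.80), Fbxo15 (-1.19), Nr0b1 (-1.12), Pou5f1 (-0.60) and Zfp42 (-0.54). Nanog's brighter probe set (-0.05), Klf4 (0.23), Tbx3 (0.21) and Sall4 (0.32) did not pass, and Nanog's dimmer probe set was higher (0.46, adjusted p = 0.0468). By their brightest probe sets, the 4 genes that were higher in Cdk4 +/- than in E14 cells differed from ESVJ cells by at most 0.32, beyond the threshold in none. Against Abca1 +/- cells, Cdk4 +/- cells were lower in the same 5 genes, from -1.04 for Fbxo15 to -0.40 for Pou5f1. They were higher in Tbx3 (0.49, adjusted p = 0.0471) and Klf4 (0.36, adjusted p = 0.0471). In that comparison 40.5% of all probe sets passed, 19.4% as higher and 21.1% as lower. E14 cells were lower than Abca1 +/- cells in 10 of the 10 probe sets, where 39.6% of all probe sets passed, 18.6% as higher and 21% as lower. These comparisons share their ES groups with those above.

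Companion genes of the network were counted from a list of 34, of which 24 were on the array and tested. Between Cdk4 +/- and E14 cells 0 of the 24 passed by limma, at a median of 0.16, while 2.84% of all 5590 genes were higher and 2.45% lower. Sox2, the partner of Oct4, averaged 5488 in Cdk4 +/- and 5074 in E14 cells (adjusted p = 0.622), and Klf2, a relative of Klf4, 317 in Cdk4 +/- and 180 in E14 cells (adjusted p = 0.0655). Lefty1, with the smallest p of the 24, went the other way, at 1780 in Cdk4 +/- and 3404 in E14 cells (-0.85, adjusted p = 0.0524). Between E14 and ESVJ cells 16 of the 24 were lower, 3 were higher and 5 did not pass, at a median of -0.60, where 22.5% of all genes were lower and 21.0% higher. Among the lower ones were Tdgf1, a Nodal coreceptor (-1.47), Dppa2, a chromatin-bound protein of pluripotent cells (-1.28), Fgf4, the growth factor that ES cells secrete (-1.26), Gdf3, a growth factor of the TGF-beta family (-1.14), and Phc1, a Polycomb subunit (-0.89). The 3 higher ones were Lefty1, a Nodal inhibitor (1.92), Slc2a3, a glucose transporter (1.03), and Dppa3, a maternal factor also known as Stella (0.87).

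**Figure D4:**
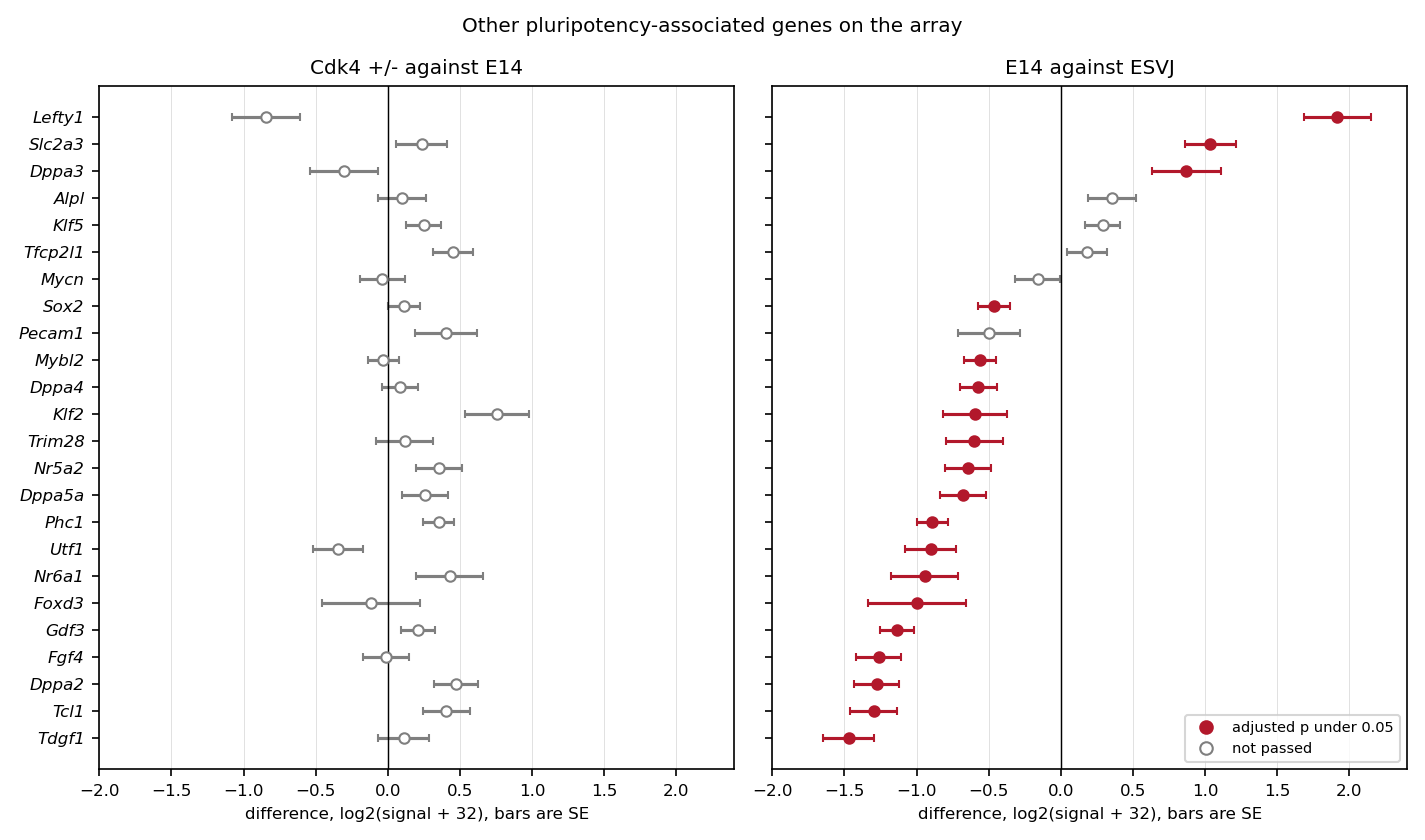
Log2 differences with SE of the 24 companion genes for Cdk4 +/- against E14 (left) and E14 against ESVJ (right), on the log2(signal + 32) scale; filled points have an adjusted p under 0.05. On the left none is filled, and on the right 16 filled points lie below 0 and 3 above it.

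Of 14 tested genes of the LIF pathway, which acts upstream of Klf4 and Tbx3, 1 passed between Cdk4 +/- and E14 cells, where 2.84% of all genes were higher and 2.45% lower. Pim1, a kinase gene induced by STAT3, averaged 4548 in Cdk4 +/- and 2645 in E14 cells, a log2 difference of 0.78 (adjusted p = 0.00231), and the other 13 did not pass. Stat3 averaged 920 in Cdk4 +/- and 791 in E14 cells (adjusted p = 0.393), and Lifr, the LIF receptor, 290.5 in Cdk4 +/- and 203 in E14 cells (adjusted p = 0.152). Between E14 and ESVJ cells 5 of the 14 were lower and 2 higher, at a median of -0.01, where 22.5% of all genes were lower and 21.0% higher. The lower ones included Gbx2, a homeobox target of STAT3 (-1.52), Lifr (-1.15) and Socs3, a feedback inhibitor of the pathway (-1.04), and the higher ones were Jak2, a kinase (1.42), and Junb, a transcription factor (0.72).

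Markers of other cell types were read beside these comparisons, against the same shares of all genes (2.84% higher and 2.45% lower for Cdk4 +/- against E14, 21.0% higher and 22.5% lower for E14 against ESVJ). Between Cdk4 +/- and E14 cells the tested genes that passed were 0 of 10 for trophectoderm, 0 of 9 for feeder fibroblasts, 0 of 3 for mesoderm and 1 of 13 for primitive endoderm, where Sparc was higher (0.69). In the neuroectoderm list 3 of 6 passed: Ina was lower (-1.04), and En2 (0.78) and Nnat (1.08) were higher. Of 12 formative and primed genes 1 passed, Pou3f1, a POU factor of the primed state, which averaged 92.6 in Cdk4 +/- and 229 in E14 cells (-1.04, adjusted p = 0.0208). The summed signal of 17 primitive endoderm genes was 10708 to 12180 in Cdk4 +/- and 8215 to 9580 in E14 cells, and that of 19 feeder fibroblast genes 19381 to 20716 in Cdk4 +/- and 14873 to 17549 in E14 cells. The summed signal of 12 neuroectoderm genes was 7352 to 7546 in Cdk4 +/- and 8201 to 9087 in E14 cells. This sum went against the tested genes of its list, whose median log2 difference was 0.42. A sum follows its brightest genes, in the feeder list Tagln (9123 in Cdk4 +/- and 7484 in E14 cells) and Acta2 (5182 in Cdk4 +/- and 4060 in E14 cells). None of these 3 pairs of ranges overlaps, while those of the trophectoderm, mesoderm and formative lists do. The summed signals of the LIF list (13617 to 14255 in Cdk4 +/- and 10692 to 12179 in E14 cells) were also separate. So were those of the companion list (70925 to 81279 in Cdk4 +/- and 64594 to 70684 in E14 cells). The part of the marker genes in the higher Tbx3, Klf4, Nanog and Sall4 values was not tested. Between Abca1 +/- and ESVJ cells none of the tested genes of any list passed. There 0% of all 5590 genes were higher and 0% lower, so this count is not particular to the lists.

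Marker lists also differed between E14 and ESVJ cells. Of 10 tested trophectoderm genes 7 were higher in E14, and the summed signal of the 15 on the array was 23653 to 26975 in E14 and 2722 to 2968 in ESVJ cells. The keratins Krt18 (4.87), Krt8 (4.37), Krt19 (4.95) and Krt7 (4.19) led that list, with Krt8 averaging 9866 in E14 and 445 in ESVJ cells. Of its transcription factors, Tfap2c averaged 1264 in E14 and 590.4 in ESVJ cells (1.07) and Gata3 256 in E14 and 53.1 in ESVJ cells (1.84). Cdx2, at 55.0 in E14 and 10.6 in ESVJ cells, and Eomes, at 99.8 in E14 and 89.3 in ESVJ cells, were dim. The summed signal of 19 feeder fibroblast genes was 14873 to 17549 in E14 and 5462 to 5667 in ESVJ cells, although E14 grew without feeders. Most of the E14 sum came from Tagln, at 7484 in E14 and 1150 in ESVJ cells, and Acta2, at 4060 in E14 and 653 in ESVJ cells. Of 9 tested genes of that list 5 were higher and 2 lower. Tagln (2.68), Acta2 (2.59), Timp3 (1.60) and Col1a1 (1.45) were higher, with Col1a1 averaging 986 in E14 and 341 in ESVJ cells and Timp3 880 in E14 and 264 in ESVJ cells. Col1a2 (-0.60) and Fbln2 (-0.82) were lower. Thy1, at 47.7 in E14 and 114 in ESVJ cells, and Postn, at 66.9 in E14 and 42.1 in ESVJ cells, were dim. Other marker lists had tested genes that passed in both directions: 4 higher and 5 lower of 12 formative and primed genes, 3 higher and 6 lower of 13 primitive endoderm genes, and 1 higher and 3 lower of 6 neuroectoderm genes. Of 3 tested mesoderm genes 1 passed, Wnt3 (2.20). Their part in the lower values of Esrrb, Nr0b1, Fbxo15 and the other members was not tested.

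The genes whose arrays followed each member most closely were taken from 5589 other genes, by the smallest root mean square difference of centred log2 values over the 12 ES arrays. Nr0b1 was followed most closely by Gdf3 at 0.14, where the median gene was at 0.64, with Mras and Prkdc next at 0.15 each. Gdf3 averaged 983 in Cdk4 +/-, 849 in E14, 1873 in Abca1 +/- and 1908 in ESVJ cells, the same order as Nr0b1. Esrrb was followed by Dazl at 0.25, Ykt6 at 0.33 and Hells at 0.35 (median gene 0.80), and Dazl, like Esrrb, had its mean in Abca1 +/- cells (338) below that in ESVJ cells (567). Fbxo15 was followed by Gabarapl2, Wdr92 and Ccdc117 at 0.15 to 0.18, and Zfp42 by Ddx18, Bub1 and Aurka at 0.12 to 0.13. Tbx3 was followed by Elovl6 and Nnat at 0.20 and Txnip at 0.21 (median gene 0.55). Txnip averaged 2166 in Cdk4 +/-, 791 in E14, 1316 in Abca1 +/- and 1343 in ESVJ cells, again with E14 at the bottom. Klf4 was followed by Zfp62, Ckap5 and Etnk1 at 0.15 to 0.18, Nanog by 6430706D22Rik, Thumpd3 and Nbr1 at 0.13 to 0.14, Sall4 by Clk2, Pex19 and Ntn1 at 0.12 to 0.14, and Pou5f1 by Gsx1, Rpl6 and Rps4x at 0.10 to 0.11. The 12 arrays fall into 4 groups, so such likeness describes the group pattern more than variation within a group.

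The 3 dim probe sets did not separate ES cells from liver. The second Pou5f1 probe set had 13.6 to 108 over the ES arrays and 12.7 to 80.1 in liver, where the first separated ES cells from liver fully. The second Klf4 probe set stayed at or below 19.4 on all arrays, and the second Nr0b1 probe set had 1.87 to 60.8 in ES cells and 6.93 to 61.1 in liver. Its means were 6.91 in Cdk4 +/-, 20.9 in E14, 30.0 in Abca1 +/- and 47.7 in ESVJ cells, with the same upper and lower pairs of groups as the brighter Nr0b1 probe set. Within the lower pair the order was reversed, with Cdk4 +/- below E14. None of these means exceeds the liver range, so they cannot be told from background. Without the signal filter none of the 3 passed for Cdk4 +/- against E14, Abca1 +/- against ESVJ, E14 against ESVJ, the difference of effects or ES cells against liver, and the other pairs of groups were not run in that way. Their suffixes mark probe sets with reduced or incomplete design rules.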

How the data were processed

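RNA of 16 mouse samples was hybridised to mouse U74Av2 arrays and, per the labels, normalized by the authors with MAS5.0 at default settings; the deposited values are linear intensity signals of 12488 probe sets, without detection calls. Their 2% trimmed mean was 1500.8 to 1501.6 on every array, and all arrays were rescaled to 500. Signals were taken as log2(signal + 32), and probe sets averaging 100 or more across the fitted arrays were tested with limma 3.58.1 in R 4.3.3 (empirical Bayes with an intensity trend), and control probe sets were left out. The 4 ES groups shared 1 fit (7349 probe sets, 8 residual degrees of freedom), and all 16 arrays gave the comparison with liver (7841 probe sets, 10 residual degrees of freedom). Within each comparison, Benjamini-Hochberg adjustment covered every probe set tested, and "passed" means an adjusted p under 0.05. The number of arrays limits the precision.

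Of the probe sets, 10833 have 1 gene symbol, 396 several and 1237 none. In gene lists and likeness, each gene is read from whichever of its probe sets is brightest on average in ES cells. Named are all members, Cdk4 and Abca1, per list up to 6 passing genes with the smallest p and up to 3 others, and the 3 genes most like each member. Members, lists and tests were chosen with earlier results of these data known. Alternatives were scaling, pseudocount, filter, trend, probe set choice, the arrays fitted and leaving out arrays.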

Additional observations from a re-analysis of the deposited data

Results flagged for a closer look

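The difference in Tbx3 between Cdk4 +/- and E14 cells exceeded that between Abca1 +/- and ESVJ cells by 1.48 on the log2 scale (limma, adjusted p = 0.0234). Tbx3 was higher in 3 of 3 Cdk4 +/- arrays than in all E14 arrays, and lower in 3 of 3 Abca1 +/- arrays than in all ESVJ arrays. For Klf4 the same 2 differences were 0.92 apart (limma, adjusted p = 0.0466). Klf4 was higher in 3 of 3 Cdk4 +/- arrays than in all E14 arrays, and overlapped between Abca1 +/- and ESVJ cells. Both stand out because the test of the gap between the 2 differences passed. Each mutant is 1 line, E14 is not labelled as the parent of the Cdk4 +/- line and the pairs differ in culture and RNA isolation, so mutation and line cannot be told apart.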

How the results depend on the processing

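For Tbx3, the Cdk4 +/- against E14 call held in the 11 other settings that tested it and in 6 array omissions; a filter of 200 leaves Tbx3 untested. Klf4 missed in 1 of 12 settings, the fit of all 16 arrays. Against liver every member probe set that passed the filter was higher in ES cells in each setting, 9 to 10 of them with an array left out. All probe sets gave 6035 to 6307 calls there with an array left out, and 4867 (mean per gene) to 7938 (no filter) in the other settings. In E14 against ESVJ 8 to 9 member probe sets passed with an array left out, and 2529 to 2857 of all. In Cdk4 +/- against E14 the 5 member calls became 1 with all 16 arrays and 2 to 4 with an array left out. The 361 calls over all probe sets became 196 without a filter, 227 without the trend, 35 with all 16 arrays, 174 with only both groups and 68 to 521 with an array left out. In Abca1 +/- against ESVJ the 2 calls over all probe sets became 1 without a filter, with a filter of 200 or with only both groups, 0 with the mean per gene or all 16 arrays, 4 without the 3 arrays of high BioB control signal (chosen after the data were seen), and 1 to 1 with an array left out. For the difference of effects, the 2 member calls became 1 with a pseudocount of 1, a filter of 200, no trend or without the high BioB arrays, 0 without a filter or with all 16 arrays, and 0 to 2 with an array left out; the 46 over all probe sets became 16, 19 and 1 without a filter, without the trend and with all 16 arrays, and 5 to 93 with an array left out. The cause of these changes was not tested.

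Signs turned only for differences near 0 that never passed. In Cdk4 +/- against E14, Pou5f1 was at 0.0201 with quantile normalization, and from -0.0910 to 0.0446 with an array left out. In Abca1 +/- against ESVJ, Nanog was at 0.10 with the mean per gene, and its brighter probe set from -0.20 to 0.0270 with an array left out. There Sall4 lay between -0.0120 and 0.137 and Zfp42 between -0.0940 and 0.0336 with an array left out, and Zfp42 was at 0.0673 without the high BioB arrays. No paired analysis was possible because the labels give no replicate numbers. Dim probe sets, Esrrb and Tbx3 among them, are limited by signal over background, and 3 arrays a group limit every ES comparison.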
